A study of Mus musculus with 9 samples.

Results

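Protocadherins, the largest family of the cadherin superfamily, were described in ribosome-bound and total RNA of the mouse cerebral cortex. The members were all gene rows whose symbol starts with Pcdh: 71 of the 32531 gene rows, of which 12 were non-clustered genes and 59 belonged to the alpha, beta and gamma clusters. The 9 libraries came from adult, untreated control mice of the line Abcb1a-TRAP ES3026, which carry the transgene Abcb1a-EGFP/Rpl10a: a ribosomal protein fused to a green fluorescent protein and expressed under the control of Abcb1a, which encodes a drug-exporting pump of the blood-brain barrier. In TRAP (translating ribosome affinity purification), ribosomes that carry the tag are pulled down with antibodies against the fluorescent protein, so that the purified RNA comes preferentially from the cells in which the transgene is active. There were 3 groups of 3 libraries: immunopurified RNA extracted by the investigator with the initials ES (ES IP), immunopurified RNA extracted by the investigator JL (JL IP), and total cortex RNA, the input, extracted by JL (JL input). All groups, the input included, carried the transgene, and mice without it were not analysed here. Nothing in the labels says that the libraries came from separate mice, so each p-value speaks of the variation among these libraries alone.

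Protocadherins are transmembrane proteins with cadherin repeats in their outer part. In the clusters, each variable exon has its own promoter and encodes an outer domain, and a cell picks a few of these promoters. In the alpha and gamma clusters the chosen exon is spliced to constant exons that encode a common inner domain, whereas each beta gene is a single exon. Clustered protocadherins bind their own kind across membranes and are known from neurons, where they let the branches of a cell recognise each other; the C-type members at the ends of the alpha and gamma clusters are regulated apart from the others. The non-clustered members include the delta-1 genes (Pcdh1, Pcdh7, Pcdh9, Pcdh11x), the delta-2 genes (Pcdh8, Pcdh10, Pcdh17, Pcdh18, Pcdh19), which guide adhesion, axon growth and synapse formation, and Pcdh12, known as vascular endothelial cadherin-2.

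The reference promoters of 3 delta-2 genes are shown because Pcdh10 and Pcdh17 were lower in the JL IP libraries than in the input whereas Pcdh19 was not called different. Each is the 250 bases before the gene's start in RefSeq (GRCm38.p6), 5′ to 3′ on the gene's strand, with the motif CCAAT, or ATTGG where it lies on the other strand, in capitals.
Pcdh19, chrX:133688994-133689243, minus strand: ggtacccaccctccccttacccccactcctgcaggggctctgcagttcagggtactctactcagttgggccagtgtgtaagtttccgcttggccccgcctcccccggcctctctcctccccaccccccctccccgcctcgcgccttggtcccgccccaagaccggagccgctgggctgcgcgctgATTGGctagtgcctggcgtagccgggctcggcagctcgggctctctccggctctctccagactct
Pcdh10, chr3:45378148-45378397, plus strand: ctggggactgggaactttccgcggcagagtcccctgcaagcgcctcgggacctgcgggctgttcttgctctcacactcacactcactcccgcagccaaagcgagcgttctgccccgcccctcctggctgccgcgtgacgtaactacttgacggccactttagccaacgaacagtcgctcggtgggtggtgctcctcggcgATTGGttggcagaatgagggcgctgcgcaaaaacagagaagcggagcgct
Pcdh17, chr14:84443313-84443562, plus strand: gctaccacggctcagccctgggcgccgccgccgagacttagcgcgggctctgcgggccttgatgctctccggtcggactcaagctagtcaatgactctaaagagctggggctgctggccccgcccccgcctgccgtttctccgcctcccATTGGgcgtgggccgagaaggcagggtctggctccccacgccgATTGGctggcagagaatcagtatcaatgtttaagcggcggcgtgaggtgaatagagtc
The table held a promoter for 9 members, and 8 of the 9 (not Pcdh7) had CCAAT on either strand, against 33.9% of 32851 windows of the same length. In these 3 promoters the motif had the reverse orientation, and the copy nearest to the start lay 65, 50 and 58 bases before it. The motif was chosen after the sequences were seen, a match shows only that the letters are there, and Pcdh19 held it as the other genes did. The number of CpG dinucleotides was 16 in the Pcdh19 window, 22 in Pcdh10 and 21 in Pcdh17, with a median of 6 over all windows.

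By the annotation used here (GENCODE M21, mm10), the clusters lay next to each other on chromosome 18: alpha at chr18:36930184-37187661, beta at chr18:37264938-37524479 and gamma at chr18:37661793-37841873, all on the plus strand, and Pcdh1 and Pcdh12 lay on the same chromosome. The alpha cluster had 16 rows, with the C-type genes Pcdhac1 and Pcdhac2, the beta cluster 21, and the gamma cluster 22: 12 of type A, 7 of type B and the C-type genes Pcdhgc3, Pcdhgc4 and Pcdhgc5. Pcdha4, Pcdha6, Pcdha6-g and Pcdha7 were listed at 0 in every library. A 0 here does not show that the RNA was absent, as reads that fit several gene rows enter none. Pcdha6 and Pcdha7 each stand beside a row of like name (Pcdha6-g and Pcdha7-g), and the part of this in the alpha counts was not tested. The alpha genes with an annotated position shared 48.6 to 57.4% of their exon length with other gene rows, and the gamma genes 27.8 to 66.8%. These rows were other genes of the cluster and, for Pcdha6 and the gamma genes, also Gm37013. Reads in a shared stretch enter no gene in this kind of counting, so the counts of these genes stand for their unshared exons. The share of reads left out as ambiguous was 2.48 ± 0.0509% in ES IP, 2.09 ± 0.0462% in JL IP and 10.8 ± 0.519% in JL input, and its part in the values of these clusters was not tested. Some sequence also recurs within the first exons of the alpha and gamma genes and within the beta genes. In the alpha cluster a median of 14.67% of the 50-base windows, and up to 23.43% (Pcdha7), were found in another protocadherin. The median was 3.71% in the beta cluster, with up to 11.99% (Pcdhb12), and 0.81% in the gamma cluster, with 17.9% for Pcdhgb2. Pcdhga4 had 39.5%, but its first exon (2608 bases) is longer than its unshared exon length (1570 bases). Its windows thus include shared stretches that enter no gene. Counts of genes with recurring windows are uncertain for that reason.

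Depth and composition differed between the groups. Gene counts ran from 31987470 to 46598478 per library. Abcb1a was at 404 to 447 CPM (gene counts scaled to the same total in every library) in JL IP, 38.4 to 55.5 in ES IP and 1.99 to 2.98 in JL input. The summed level of 12 endothelial markers was 4336 to 4540 CPM in JL IP, 503 to 850 in ES IP and 25.7 to 32.1 in JL input, and that of 12 neuronal markers 1907 to 2667, 17374 to 18538 and 18318 to 18948; no marker of either list was at 0 in any group. The endothelial sum of ES IP thus lay between the JL groups. Its neuronal sum, of which Snap25 made up the greater part, was near that of the input, but 7 of the 12 neuronal markers were called different from it, in both directions. In tissue RNA, fewer cells of a type and less RNA per cell cannot be told apart. Lanes here are the lane numbers in the names of the deposited counts, and the sample titles do not give the sequencing run. By these numbers the ES libraries had a lane of their own, so investigator and lane cannot be told apart. ES has no input library here.

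Most protocadherins were lower in the RNA purified by JL than in the input, and the family was split by a few exceptions. For JL IP against JL input, 65 members were tested with edgeR's quasi-likelihood test (adjusted p under 0.05, Benjamini-Hochberg over all 17357 genes tested): 49 were lower, 2 were higher (Pcdh12 and Pcdhgc3), 14 did not pass, and 6 had too few counts for the test. Of all genes tested, 37.4% were called lower and 36.7% higher (74.1% in either direction), and the members' share of lower calls was 75.4%. The median log2 fold change was -1.81 over the members tested and -0.09 over all genes tested. In 57 members the 3 JL IP libraries all lay below the 3 input libraries (48.5% of all genes did), and in 2 they all lay above (32.8%). In each of the 49 called lower the groups did not overlap, so the IP library was necessarily below the input of the same lane. Of the 14 that did not pass, 11 also had the IP library below the input in all 3 lanes on plain CPM. Among these were Pcdhgb5, Pcdhgb6, Pcdhgb7 and Pcdhgb8. The share of all genes with this pattern was not counted. Through 1 group only, 17 of the 65 members passed the filter on low counts (12 called lower, 1 higher and 4 not passed), so their calls describe genes that had to be high in one group. For Pcdh12 this group was JL IP. For the others it was JL input: all alpha genes tested besides Pcdhac2, Pcdhb6, Pcdhb8, Pcdhb10, Pcdhb12, Pcdhgb6 and Pcdhgc4. Pcdhac2 passed through both groups. The fold changes include a scaling between libraries (TMM) that adds 0.26 to the log2 ratio of the plain CPM in JL IP against JL input, 0.11 in ES IP against JL input, and -0.06 in ES IP against JL IP.

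**Figure D1:**
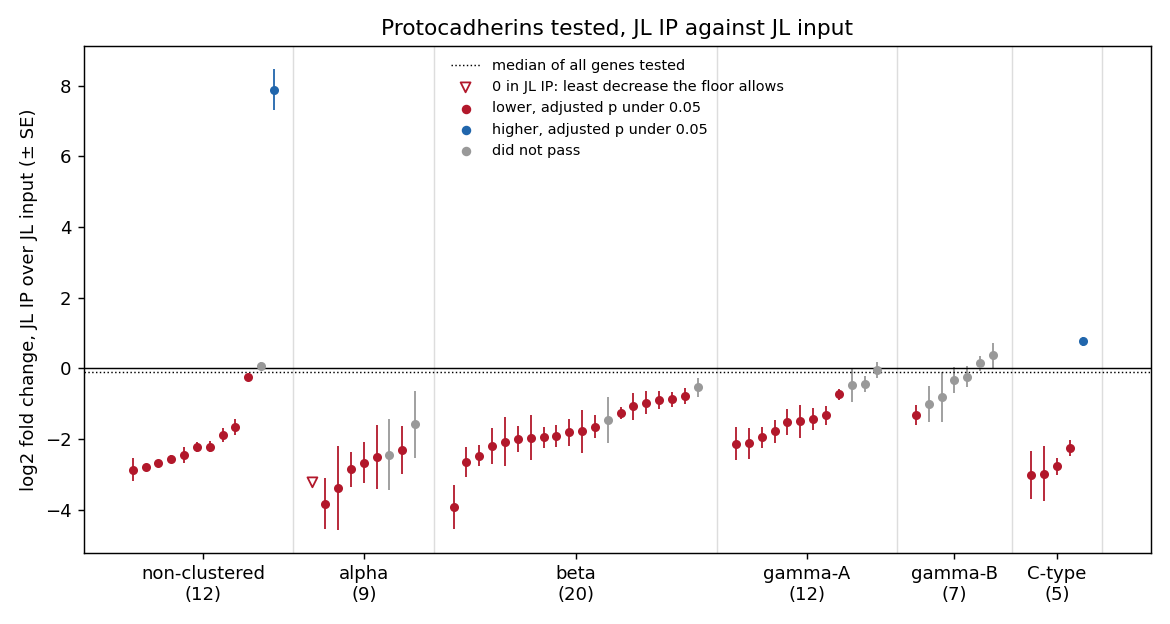
Log2 fold change with its standard error (y axis) of each protocadherin tested in JL IP against JL input, ordered within subset (x axis, number of genes in brackets). Red points were called lower, blue points higher and grey points did not pass; the open triangle is Pcdha1, at 0 in JL IP, drawn at the smallest decrease that 3 counts per library allow. Pcdh12 stands at 7.88, and 6 of the 7 gamma-B genes are grey.

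Pcdh12 encodes a cadherin of endothelial cells that binds its own kind. It lay at 8.44, 8.78 and 6.85 CPM in the 3 JL IP libraries, at 0, 0.0219 and 0.0936 CPM (0, 1 and 4 reads) in JL input, and at 0.337, 0.303 and 0.811 CPM in ES IP. All 3 groups were separate, with ES IP in the middle, as for the endothelial markers. The log2 fold change was 7.88 ± 0.59 (SE) for JL IP over input (adjusted p = 3.4e-06, edgeR), -4.11 ± 0.44 for ES IP over JL IP (adjusted p = 1.5e-05) and 3.70 ± 0.88 for ES IP over input (adjusted p = 0.0081). With 5 reads in all inputs together, the size of the first and the last value is imprecise. In both comparisons with input, Pcdh12 passed the filter on low counts through the IP only, so it had to be high there.

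Among the delta-1 genes, Pcdh7, Pcdh9 and Pcdh11x were lower in JL IP and Pcdh1 much less so. Pcdh9, an adhesion molecule of cortical circuits, was at 31.0, 30.3 and 34.9 CPM in JL IP and 252, 251 and 233 in JL input, with 85.4, 119 and 125 in ES IP. The JL groups were far apart, and the ES libraries lay between them. Its log2 fold change for JL IP over input was -2.68 ± 0.08 (adjusted p = 1.2e-08, edgeR). Pcdh7, which binds a protein phosphatase through its inner domain, fell by 1.89 ± 0.19 on the log2 scale, from 143 ± 5.92 CPM in JL input to 32.6 ± 10.8 in JL IP (mean ± SD, n = 3), and its JL IP libraries spread from 22.9 to 44.2 CPM. Pcdh11x, on the X chromosome, fell by 2.56 ± 0.12, from 34.5 ± 1.57 to 4.89 ± 0.37 CPM. Pcdh1, known from epithelia and airways as an adhesion molecule, was at 96.1, 96.8 and 110 CPM in JL IP and 136, 141 and 152 in JL input. These groups did not overlap, but the log2 fold change was only -0.24 ± 0.08 (adjusted p = 0.022), and the call was lost without JL IP replicate 1 or 2, without input replicate 2 or 3 (adjusted p 0.0503 to 0.0956), and with all 9 libraries in one fit (0.199).

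Of the delta-2 genes, 4 were lower in JL IP and Pcdh19 was not called. Pcdh10, which takes part in synapse elimination, was at 21.5, 24.2 and 22.2 CPM in JL IP and 184, 193 and 187 in JL input, with 74.5, 106 and 109 in ES IP. Its JL IP libraries were tightly grouped, at a log2 fold change of -2.79 ± 0.08 (adjusted p = 9.8e-09, edgeR). Pcdh17, which organises synapses in the corticobasal circuits, fell by 2.21 ± 0.15, from 87.3 ± 4.75 to 15.8 ± 3.79 CPM. Pcdh8 (arcadlin), a regulator of N-cadherin at synapses, fell by 2.87 ± 0.33, from 10.7 ± 0.558 to 1.23 ± 0.495 CPM. Pcdh18 fell by 1.65 ± 0.22, from 9.60 ± 0.811 to 2.56 ± 0.466 CPM. Pcdh19, the X-linked gene of an epilepsy syndrome, was at 61.7, 63.7 and 52.0 CPM in JL IP, 69.7, 71.0 and 62.0 in JL input, and 41.4, 51.5 and 47.0 in ES IP. Those of JL IP and input overlapped, and the log2 fold change was 0.07 ± 0.11 (adjusted p = 0.57). On plain CPM, without the scaling between libraries, its IP library was lower in each of the 3 lanes, by 0.16 to 0.25 on the log2 scale, and the direction of this small difference depends on the scaling.

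The JL replicates with the number 1 held reads of the Y-linked gene Ddx3y (2298 in the IP and 3249 in the input), the other JL libraries at most 1, and the ES libraries 660 to 1037. For the X-linked members, replicate 1 was neither the highest nor the lowest JL library for Pcdh19 in the IPs or in JL input, and its part in the other values was not tested. For Pcdh11x it was the lowest JL IP library (4.54 CPM) and the highest input (36.4).

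Both remaining non-clustered genes fell. Pcdh15, part of the tip link of hair cells in the inner ear, went from 32.9 ± 1.24 CPM in JL input to 5.09 ± 1.79 in JL IP (log2 -2.44 ± 0.23), and Pcdh20 from 25.2 ± 0.875 to 4.51 ± 0.35 (log2 -2.22 ± 0.14). Of the 12 non-clustered genes, 10 were thus lower, at a median log2 change of -2.22. The 12 neuronal markers fell as well in JL IP, by a median of 2.53 on the log2 scale. Other marker lists also had negative medians: -2.57 (oligodendrocytes), -1.74 (their precursors), -2.53 (microglia), -2.07 (astrocytes), -2.13 (pericytes) and -2.66 (choroid plexus and ependyma). Called higher against these medians were 2 of 10 astrocyte markers, 1 of 8 oligodendrocyte markers and 1 of 8 pericyte markers. The summed level of the pericyte markers overlapped, at 21.8 to 47.4 CPM in JL IP and 37.4 to 42.2 in JL input. Smooth muscle markers had a median of -0.15, fibroblast markers 1.63 and endothelial markers 7.57. The part of these differences in the protocadherin values was not tested.

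**Figure D2:**
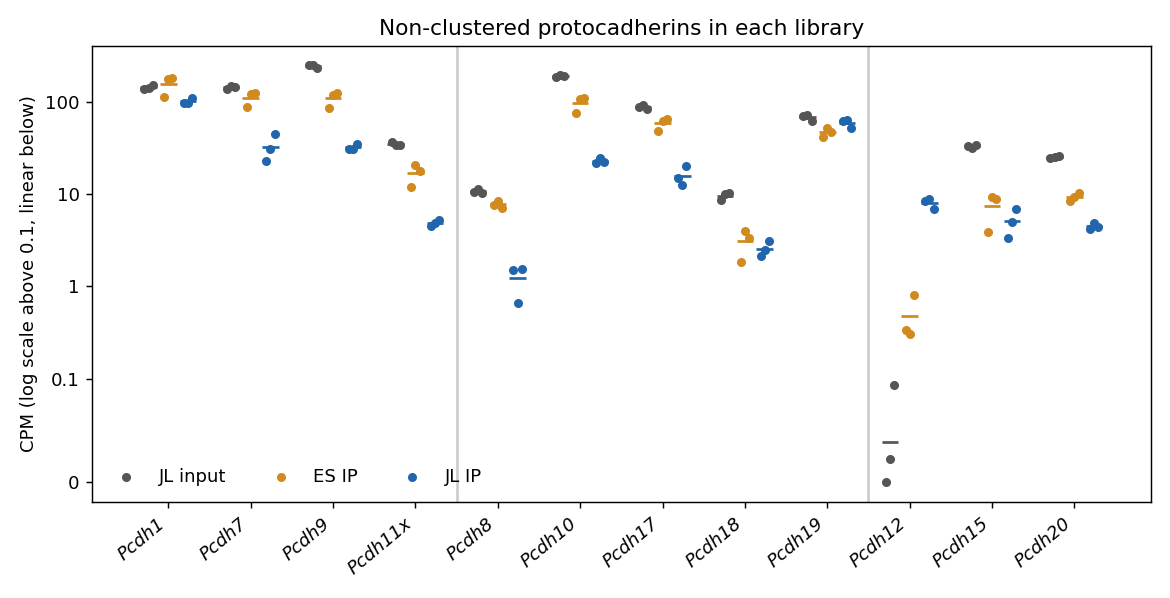
Level in CPM (y axis, logarithmic above 0.1 and linear below) of the 12 non-clustered protocadherins in each of the 9 libraries; points are libraries and short lines group means, with delta-1, delta-2 and other genes separated by grey lines. Pcdh12 is highest in JL IP (6.85 to 8.78 CPM), Pcdh19 is within 41.4 to 71.0 CPM in all groups, and Pcdh9 and Pcdh10 fall from input through ES IP to JL IP.

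In the alpha cluster the RNA that remained in JL IP was scarce. Summed over the cluster, the level was 9.42, 6.14 and 10.1 CPM in JL IP, 50.4, 53.2 and 56.8 in JL input, and 25.6, 37.0 and 30.4 in ES IP. The 3 groups did not overlap. Of the 9 alpha genes tested besides the C-type ones, 7 were lower, at a median log2 change of -2.66. All 9, and Pcdhac1, passed the filter on low counts through JL input only, so they had to be high there. Pcdha1 had no read in any JL IP library against 0.824 ± 0.241 CPM in JL input, at least 9.32-fold lower with a floor of 3 counts per library. Pcdha5 fell from 4.14 ± 0.314 to 0.484 ± 0.343 CPM (log2 -2.85 ± 0.49) and Pcdha12 from 3.80 ± 0.354 to 0.497 ± 0.421 (log2 -2.66 ± 0.57). Pcdha11 had the smallest change, -1.57 ± 0.95, and did not pass (adjusted p = 0.16, edgeR), with JL IP libraries at 0.583, 1.14 and 0 CPM. Pcdhac2, the C-type gene next to the beta cluster and a member expressed in serotonergic axons, was the most abundant alpha gene in every library. It lay at 5.83, 3.65 and 7.03 CPM in JL IP against 29.8, 30.2 and 33.3 in JL input (log2 -2.25 ± 0.22, adjusted p = 2.3e-05) and made up 58.2 ± 1.22% of alpha cluster counts in JL input, 63.7 ± 5.32% in JL IP and 67.4 ± 1.99% in ES IP. Pcdhac1 fell by 3.02 ± 0.67 on the log2 scale, to 0.253 ± 0.241 CPM.

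Of the 20 beta genes tested, 18 were lower in JL IP, and the size of the change varied along the cluster. The median log2 fold change was -1.79. Pcdhb12 changed most, from 5.09, 5.62 and 4.26 CPM in JL input to 0.0614, 0.185 and 0.594 in JL IP, at -3.91 ± 0.62 (adjusted p = 0.00047, edgeR). At the other end, Pcdhb14 was at 3.77, 4.23 and 7.28 CPM in JL IP and 8.82, 9.70 and 7.79 in JL input, without overlap, and did not pass (log2 -0.53 ± 0.26, adjusted p = 0.097). The most abundant beta genes, Pcdhb16 and Pcdhb17, fell by 1.25 ± 0.18 and 0.89 ± 0.25, to 6.54 ± 1.16 and 6.58 ± 2.37 CPM.

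The gamma cluster held most of the members that were not lower in JL IP. Of 12 gamma-A genes, 9 were lower (median log2 fold change -1.47), but of 7 gamma-B genes only Pcdhgb1 was (log2 -1.31 ± 0.29, adjusted p = 0.0029, edgeR), and the gamma-B median was -0.32. Pcdhga10 lay at 8.25, 5.16 and 8.60 CPM in JL IP and 7.98, 9.06 and 9.99 in JL input; the groups overlapped, and the log2 fold change was -0.04 ± 0.23 (adjusted p = 0.88). Pcdhgb4 was at 3.28, 1.90 and 2.44 CPM in JL IP and 2.79, 2.52 and 1.78 in JL input, again overlapping (log2 0.37 ± 0.35, adjusted p = 0.36), and Pcdhgb2 had 0.15 ± 0.22 (adjusted p = 0.55), which turned to -0.11 with library size alone. At the other extreme, Pcdhga3, the most abundant gamma-A gene of the inputs, fell from 16.8 ± 2.19 to 3.26 ± 2.33 CPM (log2 -2.12 ± 0.43), and Pcdhga1 from 4.79 ± 0.255 to 0.908 ± 0.636 (log2 -2.13 ± 0.47). Pcdhga12, a neighbour of the C-type genes, fell by 0.73 ± 0.15. A value that did not pass does not show that the level was the same in both fractions.

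The 3 gamma C-type genes went in opposite directions. Pcdhgc3, the C-type gene also known from cells outside the nervous system, was at 41.5, 32.6 and 40.4 CPM in JL IP and at 28.8, 26.0 and 25.7 in JL input. Each JL IP library was above each input, and the log2 fold change was 0.77 ± 0.12 (adjusted p = 0.00045, edgeR). Pcdhgc5 was at 6.41, 6.13 and 12.2 CPM in JL IP and at 64.1, 64.4 and 72.2 in JL input, which came to -2.77 ± 0.24 (adjusted p = 1.0e-05). Pcdhgc4, whose loss in mice leads to the death of interneurons, fell by 2.97 ± 0.78 (adjusted p = 0.0078), although JL IP replicate 1 (2.18 CPM) lay well above replicates 2 and 3 (0.238 and 0.188). Pcdhgc3 took 36.3 ± 3.59% of gamma cluster counts in JL IP against 11.3 ± 0.975% in JL input and 10.95 ± 0.963% in ES IP, and Pcdhgc5 took 7.63 ± 2.04%, 28.0 ± 1.10% and 37.7 ± 2.59% (description, no test). Gamma-A genes together had 37.4 ± 3.27% in JL IP and 44.1 ± 1.53% in JL input, and gamma-B genes 17.9 ± 1.43% and 13.2 ± 0.682%.

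**Figure D3:**
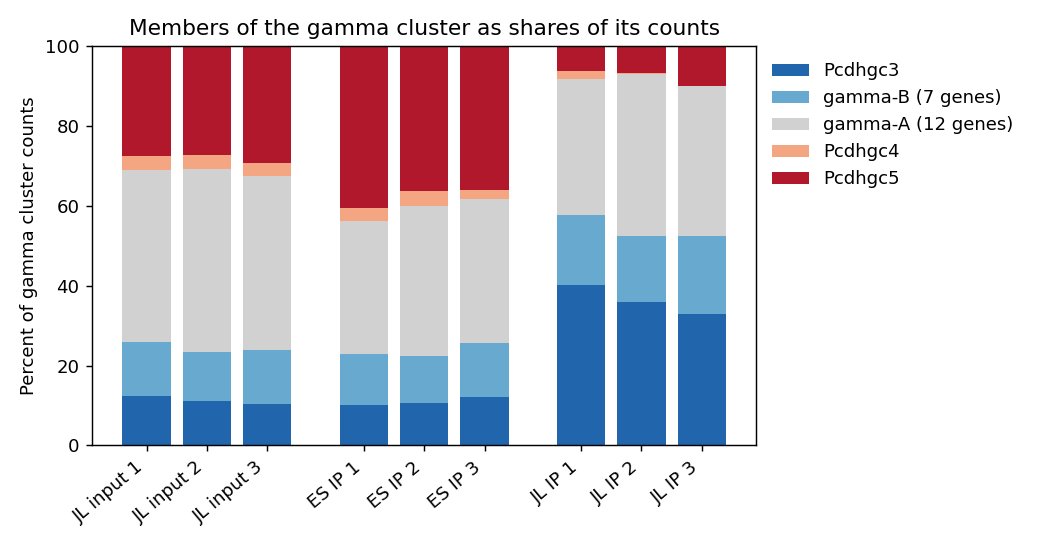
Share of the gamma cluster's counts (y axis, percent) held by Pcdhgc3, the 7 gamma-B genes, the 12 gamma-A genes, Pcdhgc4 and Pcdhgc5 in each of the 9 libraries (x axis). Pcdhgc3 takes 32.9 to 40.1% in JL IP and 10.2 to 12.3% in the other libraries, where Pcdhgc5 takes 27.3 to 40.6%.

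Levels of different genes were compared as CPM per kilobase of unshared exon. Spreads are SDs over 3 libraries, and the genes were not paired by library. In the JL IPs the order began with Pcdh1 (11.5 ± 0.876) and Pcdhgc3 (11.3 ± 1.44), which did not differ beyond their spread, followed by Pcdh19 (5.65 ± 0.600), Pcdh9 (4.73 ± 0.367) and Pcdh7 (3.89 ± 1.29). Pcdh9 and Pcdh7 also lay within their spread of each other. In the inputs it began with Pcdh9 (36.2 ± 1.59), then Pcdh7 (17.1 ± 0.707) and Pcdh1 (16.2 ± 0.924), which lay within their spread of each other, and then Pcdhgc5 (12.2 ± 0.835) and Pcdh10 (11.9 ± 0.311), which did not differ beyond their spread either. In the ES IPs the first were Pcdh1 (17.6 ± 4.15), Pcdh9 (16.2 ± 3.13), Pcdh7 (13.1 ± 2.35) and Pcdhgc5 (8.83 ± 1.16). Pcdh1, Pcdh9 and Pcdh7 were each lowest in ES IP replicate 1, so their spreads are partly shared. As shares of the non-clustered counts per kilobase they held 25.9 ± 1.41%, 23.9 ± 0.43% and 19.4 ± 0.223%. Pcdh7 thus lay below Pcdh1 and Pcdh9 beyond the spread.

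Between the IPs of the investigators, 23 protocadherins were higher with ES and 5 were lower. For ES IP against JL IP, 63 members were tested and 35 did not pass; the calls compare with 29.7% higher and 28.2% lower of all 16212 genes tested. The share of higher calls, 36.5%, was near that background, and the share of lower calls, 7.94%, was below it. The median log2 fold change was 0.95 (0.03 over all genes tested). The number of higher calls was 13 without ES IP replicate 2. Through ES IP only, 15 of the 63 passed the filter on low counts (4 called higher: Pcdha5, Pcdhac1, Pcdhb12 and Pcdhgc4), so these had to be higher there. The Pcdha5 call (log2 1.71 ± 0.66) was lost on leaving out any single library but JL IP replicate 3. Of the non-clustered genes 8 were higher: Pcdh8 (log2 2.59 ± 0.38), Pcdh10 (2.03 ± 0.20, adjusted p = 7.4e-06, edgeR), Pcdh17, Pcdh11x, Pcdh9, Pcdh7, Pcdh20 and, at 0.56 ± 0.20, Pcdh1, whose call was lost on leaving out 5 of the 6 libraries in turn (every one but ES IP replicate 1). The C-type genes Pcdhgc5 (2.50 ± 0.28, adjusted p = 1.9e-05), Pcdhac2 (1.86 ± 0.27), Pcdhac1 (2.64 ± 0.75) and Pcdhgc4 (2.17 ± 0.79) were higher as well, the last not without ES IP replicate 1 or 2 or JL IP replicate 2 or 3, and Pcdhac1 not without ES IP replicate 2. Among the beta genes 8 of 20 were higher, led by Pcdhb12 at 3.66 ± 0.66. The neuronal markers, 12 of 12, were higher in ES IP and the endothelial markers, 12 of 12, lower. Median log2 changes of the other lists were 1.62 (astrocytes), 1.46 (oligodendrocytes), 1.01 (their precursors), 1.74 (microglia) and 1.58 (pericytes). Those of smooth muscle, fibroblasts, and choroid plexus and ependyma were -0.72, -1.80 and -1.41. The part of all these markers in the protocadherin differences was not tested.

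The 5 lower members were Pcdh12, Pcdhgc3, Pcdhga10, Pcdhgb4 and Pcdhga6; the last was named after its values were seen. Pcdhgc3 was at 11.2, 16.3 and 15.2 CPM in ES IP, below every JL IP and every input, at a log2 fold change of -1.48 ± 0.21 against JL IP (adjusted p = 0.00012, edgeR) and -0.80 ± 0.16 against input (adjusted p = 0.0042). Pcdhga10, at 2.67, 2.94 and 2.96 CPM, was likewise below all 6 JL libraries, with -1.42 ± 0.30 (adjusted p = 0.0021) and -1.54 ± 0.17 (adjusted p = 0.00019). Pcdhgb4 had -1.49 ± 0.49 against JL IP (adjusted p = 0.023), a call lost without ES IP replicate 1 or 3 or JL IP replicate 1. In 6 members (Pcdh19, Pcdhga6, Pcdhga10, Pcdhgb2, Pcdhgb4 and Pcdhgc3) the ES IP libraries all lay below all 6 JL libraries. Of the genes tested in ES IP against JL IP, 8.57% did so, a share close to that of the members. In another 29 members the ES IPs lay between the JL IPs and the inputs without overlap, and in the other 32 with reads they overlapped one of these groups. The share of all genes with either of these patterns was not counted, so these counts are description only.

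**Figure D4:**
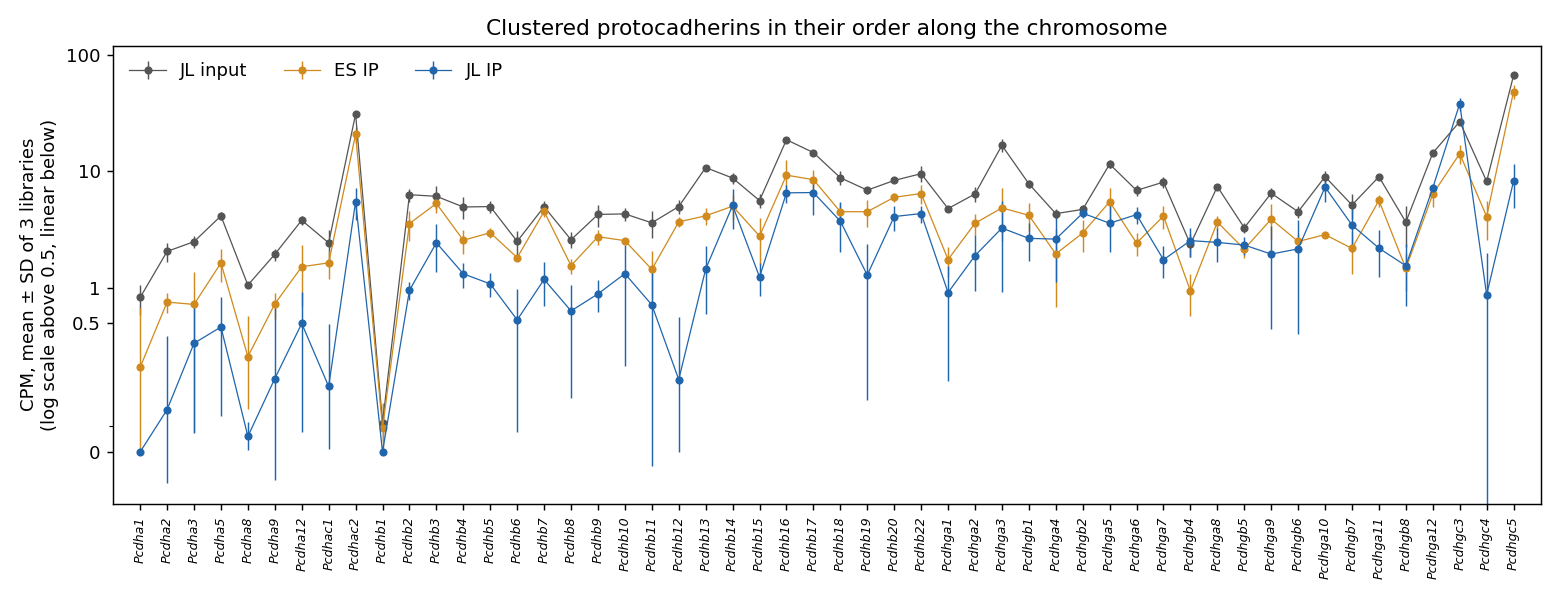
Mean CPM with its SD over 3 libraries (y axis, logarithmic above 0.5 and linear below) of the 52 clustered protocadherins with reads and an annotated position, in their order on chromosome 18 (x axis). The JL IPs lie lowest through most of the alpha and beta clusters, the groups come close in parts of the gamma cluster, and at Pcdhgc3 the JL IPs (38.2) lie above the inputs (26.8) and the ES IPs (14.2).

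In ES IP against JL input, protocadherins were mostly lower. Of 65 members tested, 43 were lower and Pcdh12 was higher, against 25.3% lower and 26.9% higher of all 17477 genes tested. Pcdh12 passed the filter on low counts through ES IP only, so it had to be high there. Through JL input only, 1 alpha gene called lower passed, and so did Pcdha1, which was not called. The median log2 fold change was -0.80 (0.00 over all genes). Markers moved as well: of the 12 neuronal markers, 4 were higher, 3 lower and 5 did not pass (median 0.15); of 8 oligodendrocyte markers 7 were lower (median -1.18, summed level 1083 to 1248 against 2574 to 2983 CPM), and of 10 astrocyte markers 5 were lower and 2 higher (median -0.37, 1359 to 1894 against 2557 to 2696 CPM). Of 6 markers of oligodendrocyte precursors 5 were lower, of 8 of microglia 4, and of 6 of choroid plexus and ependyma 6. The part of these markers in the protocadherin values was not tested. The count of lower members was 25 without JL input replicate 1, 27 without replicate 2, and 24 with all 9 libraries in one fit. All 19 gamma-A and gamma-B genes had every ES library below every input (36.6% of all genes did), and 15 of them were called lower. Among the non-clustered genes Pcdh15 fell by 2.04 ± 0.30 (adjusted p = 0.00083, edgeR), Pcdh18 by 1.53 ± 0.27, Pcdh20 by 1.32 ± 0.13, Pcdh9 by 1.05 ± 0.16 and Pcdh10 by 0.84 ± 0.16. Pcdh7 (-0.27 ± 0.15, adjusted p = 0.17), Pcdh8 (-0.35 ± 0.14, adjusted p = 0.066) and Pcdh1 (0.24 ± 0.18, adjusted p = 0.31) did not pass, nor did Pcdhgc5 (-0.34 ± 0.14, adjusted p = 0.062). Pcdh19 was lower by 0.42 ± 0.13 (adjusted p = 0.022), a call lost without input replicate 1 or 2. As this comparison joins libraries of different investigators, the fraction and the investigator cannot be told apart in it, and all 3 comparisons share libraries and are not independent.

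Replicates of the clustered genes varied more in the purified RNA. Among clustered members with a mean of 10 to 300 reads, the median coefficient of variation over the 3 libraries was 41.6% in JL IP (45 genes), 24.02% in ES IP (48) and 13.5% in JL input (32). Counting error alone gave 11.6%, 9.10% and 7.27%. Other genes in the same range of reads had 38.7%, 30.4% and 17.97%. Single clustered genes in JL IP are therefore imprecise: Pcdhgb6, for example, was at 0.215, 2.88 and 3.38 CPM.

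Genes that work with protocadherins were called in both directions in JL IP against JL input, as were all genes tested (36.7% higher, 37.4% lower). Of 8 adhesion receptors and partners, 3 were higher, among them Ret (log2 1.17 ± 0.17), the receptor tyrosine kinase that clustered protocadherins associate with, and Fgfr1 (0.79 ± 0.10), and 5 lower, among them Nlgn1 (-2.42 ± 0.13) and Robo1 (-1.97 ± 0.20). Of 12 kinases and adaptors downstream of the inner domain, 7 were higher and 4 lower; the small GTPases Rhoa (2.68 ± 0.09) and Rac1 (1.53 ± 0.06) rose and Dab1 (-2.77 ± 0.09) and Prkca (-2.44 ± 0.19) fell. The 9 genes of the WAVE complex, an actin regulator that delta protocadherins and Pcdhac2 recruit, divided by paralog: Wasf2 (4.81 ± 0.11) and Cyfip1 (1.25 ± 0.08) were among 4 higher, Wasf3 (-2.66 ± 0.16) and Wasf1 (-2.52 ± 0.11) among 5 lower. For ES IP against JL IP the values of these 4 were -2.15 ± 0.17, -1.33 ± 0.17, 3.41 ± 0.27 and 2.82 ± 0.22. Medians over the 3 lists were -1.31, 0.44 and -0.57, beside -0.09 over all genes.

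Regulators of promoter choice and proteases that cut protocadherins are given beside the 36.7% of all genes called higher and the 37.4% called lower; their difference from the family was not tested. Of 13 regulators with a row, 8 were higher in JL IP than in input, 3 lower and 2 did not pass, at a median log2 change of 0.62. Dnmt3b, the DNA methyltransferase that marks clustered promoters, was at 5.70 against 1.29 CPM (log2 2.40 ± 0.35, adjusted p = 0.00025, edgeR), and Stag1, a cohesin subunit, rose by 1.25 ± 0.12. The cohesin regulator Pds5b (-0.65 ± 0.10) and the histone methyltransferase Setdb1 (-0.56 ± 0.15) fell. Of 6 protease genes 5 were higher, among them the gamma-secretase subunits Aph1a (2.86 ± 0.34) and Ncstn (0.70 ± 0.11), the matrix protease Mmp14 (1.35 ± 0.27) and Adam10, which sheds the outer domain (0.95 ± 0.09).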

How the data were processed

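The authors deposited raw counts of reads for each gene, with one file for each of the 9 libraries (3 ES IP, 3 JL IP, 3 JL input). The alignment used STAR 2.0.0e and mm10 and the counting HTSeq, per the submitters' processing notes; which gene annotation and strand setting went into it is not given in the sources used, and reads of overlapping genes on opposite strands cannot be told apart. Reads that fit several genes or places enter no gene. The special rows and a row named unknown were left out. Gene counts were 41518263 to 46199700 in ES IP, 31987470 to 37813545 in JL IP and 42723147 to 46598478 in JL input; the ribosomal RNA precursor Rn45s held 8.74 ± 3.04%, 16.9 ± 1.09% and 5.10 ± 0.237% of them. A level of 3 counts, the floor used for genes at 0, was 0.0689, 0.0884 and 0.0668 CPM per library on average and covers counting error only. Replicate files differed by more than sampling noise, at a chi-square of at least 7.00 for each degree of freedom, and none repeated another.

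CPM are gene counts scaled to a common total. The tests were run in edgeR 4.0.16 under R 4.3.3 (filterByExpr, TMM, estimateDisp, glmQLFit, glmQLFTest; Benjamini-Hochberg over all genes tested, threshold 0.05), with only the 6 libraries compared in each fit and no block; the test was checked on simulated counts. Standard errors were derived from the fold change and its F statistic. Alternatives were other scalings and filters, DESeq2 1.42.0, limma 3.58.1 (voom), all libraries in one fit, a replicate block, and each library left out. Leaving out libraries for shares and for levels per length was added after seeing the data. Lengths and positions came from GENCODE M21, promoters from RefSeq; 67 members had 1 annotated position.

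The members and lists were chosen with earlier results of these data known. Named genes were all non-clustered and C-type members, in each other subset the 2 highest in input and in JL IP and the extremes of the log2 fold change in JL IP against JL input, and in each partner list the 2 largest and 2 smallest called changes; Pcdhga6, Pcdhgb6 and Adam10, beyond this rule, were named after their values were seen. One gene that the rule names is not reported here.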

Additional observations from a re-analysis of the deposited data

How the results depend on the processing

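For JL IP against JL input the counts of members kept their size under all alternatives run: 2 higher throughout and 40 to 54 lower. For ES IP against JL IP the count of higher members was 13 to 26 and that of lower members 3 to 4 when each library was left out in turn, against 23 and 5. For ES IP against JL input the leave-one-out counts were 1 to 2 higher and 25 to 47 lower, against 1 and 43. With all 9 libraries in one fit 24 were lower, and 54 with upper quartile factors and also with library size alone. The cause was not tested. Pcdh8 and Pcdhgc5, which did not pass in the main fit of this comparison, were called lower with each of these scalings. Over all genes this last comparison had 4704 higher and 4422 lower, with upper quartile factors 3705 and 5395; these moved the median of all genes to -0.15, and library size alone to -0.11. For JL IP against JL input, upper quartile factors and library size alone moved it from -0.09 to -0.34 and -0.35. Same-numbered JL libraries had the same lane number, and only those numbered 1 held more than 1 read of Ddx3y, but no label says that they share an animal. Their deviations correlated at 0.0998, 0.0382 and 0.0593, not all above 0.1, so they were not treated as pairs, although each correlated best with its own number. The replicate block gave 2 higher and 52 lower, 23 and 4, and 1 and 45 in the 3 comparisons. No named gene called in a comparison changed sign under the alternatives run. Of the values that did not pass, 11 changed sign under at least 1 alternative, among them Pcdh19 (0.07 to -0.19) and Pcdhgb2 (0.15 to -0.11) in JL IP against JL input with library size alone. Per kilobase, the Pcdhgc5 share of the gamma cluster was 24.3% (ES IP), 4.32% (JL IP) and 16.98% (JL input). With TMM library sizes and without Rn45s, Pcdh1 in JL IP was at 12.6 and 13.8 CPM per kilobase and Pcdh9 in JL input at 33.2 and 38.1. In JL IP the depth limits single alpha genes, many of which lie near the floor.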

Other observations

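Other cadherins were counted beside the protocadherins. Of 18 classical and related cadherins, 15 were lower in JL IP than in input, 2 higher and 1 did not pass, with a median log2 fold change of -2.14 (-0.09 over all genes tested). Of all genes tested, 37.4% were called lower and 36.7% higher. The 2 higher were Cdh5, the cadherin of endothelial junctions, at 231 against 1.78 CPM (log2 7.28 ± 0.15, adjusted p = 2.6e-09, edgeR), and Cdh1, the epithelial cadherin, at 47.2 against 1.08 CPM (5.69 ± 0.25, adjusted p = 1.3e-07). Cdh12 (-3.56 ± 0.21) and Cdh15 (-3.51 ± 0.94) fell most, the latter from 1.31 to 0.0898 CPM. In ES IP Cdh1 was at 8.40 CPM, between the JL groups (log2 -2.55 ± 0.25 against JL IP and 3.07 ± 0.31 against input).

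Of 12 other large cadherins with a row, 8 were lower in JL IP than in input, 3 higher and 1 did not pass, with a median of -1.54. The shares over all genes tested were 37.4% lower and 36.7% higher. Fat2, a giant cadherin known from cerebellar granule cells, was at 2.16 CPM in JL IP, 0.481 in ES IP and 0.0954 in input (log2 4.70 ± 0.60 for JL IP over input, adjusted p = 0.00012, edgeR), and Celsr1, a planar polarity cadherin, rose by 1.85 ± 0.27. The calsyntenins Clstn2 and Clstn3, postsynaptic cadherins, fell by 2.91 ± 0.25 and 2.34 ± 0.24 and in ES IP were at 106 and 64.4 CPM, close to the 111 and 61.6 CPM of the input (adjusted p = 0.86 and 0.26). The lists were chosen with earlier results known, and the part of the cell type markers in these values was not tested.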
